A study of Rattus norvegicus with 20 samples.

Results

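The genes described here code for the proteins that coat hepatic lipid droplets and for the enzymes that build and break down triglyceride. The set holds 10 genes of the 14217 with a single gene symbol on the array, chosen by symbol: the coat proteins Plin2 and Plin5, the CIDE proteins Cidea, Cideb and Cidec, the synthetic enzymes Gpam, Dgat1 and Dgat2, and the lipolytic enzymes Pnpla2 and Mgll. The platform annotation gives these genes 16 probe sets. Of these, 15 passed a filter on low values, which asked for more than 17.8, the 40th percentile of all normalized intensities, on at least 5 of 20 arrays. All 10 genes kept at least 1 probe set.

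Liver RNA of single rats was hybridised to Affymetrix expression arrays, 1 rat per array. The male Sprague-Dawley animals arrived aged 4 weeks, ate a commercial diet for 7 d, and were then fed the experimental diets for 15 d. The 4 diets were lignan-free or contained 0.2% sesamin, 0.2% episesamin or 0.2% sesamolin. Each diet was fed to 7 rats and measured in 5, because the heaviest and the lightest rat of a group were not arrayed. Sesamin and episesamin are epimeric lignans of sesame, and sesamolin differs from them by an oxygen bridge between the ring system and one aromatic group.

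A lipid droplet is a core of neutral lipid under a single phospholipid layer, and hepatocytes store surplus fatty acids there. Perilipins sit on that layer and govern access of lipases to the core, while CIDE proteins promote lipid transfer and fusion between droplets. Triglyceride is made by stepwise acylation of glycerol 3-phosphate, which Gpam starts and the Dgat enzymes finish, and is broken down in sequence, Pnpla2 (adipose triglyceride lipase) taking the first fatty acid and Mgll (monoacylglycerol lipase) the last. Several droplet genes are known targets of the fatty acid sensor PPARα in rodent liver.

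The mean raw brightness of an array was from 159 to 271, and 6 of the 20 arrays lay below 200 (1 lignan-free, 1 sesamin, 2 episesamin, 2 sesamolin). The actin 3′ to 5′ ratio, a sign of RNA integrity, was between 1.92 and 2.69 on all arrays, with no difference detected between any lignan and the lignan-free diet (two-sided exact permutation p = 0.476, 0.405 and 0.23, 5 arrays a diet). The liver label was borne out by hepatocyte transcripts: 6 of 7 listed markers were on the array, and Alb was between 12072 and 16033 on the 20 arrays. Values below are quantile-normalized linear intensities. Changes are differences of log2 means ± SE from a limma fit to all genes and all 20 arrays (n = 5 rats per diet), taken after an offset of 5.85 was added, which shrinks the change of dim genes. Genes with a Benjamini-Hochberg adjusted p below 0.05 over the 11576 genes tested are called higher or lower.

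Each lignan diet was first set against the lignan-free diet. With sesamin, Plin5 was the 1 member called higher and 0 were called lower, where 0.432% of all genes tested were called (0.397% higher, 0.0346% lower). With episesamin, Plin2, Plin5, Cidea and Mgll were higher and Dgat2 was lower, 5 of 10 members, where 5.12% of all genes were called (2.91% higher, 2.21% lower). With sesamolin the same 4 genes and Dgat1 were higher and Dgat2 was lower, 6 of 10 members against 6.24% of all genes (3.28% higher, 2.95% lower). The median log2 change of the 10 members was 0.14, 0.40 and 0.51 with sesamin, episesamin and sesamolin, beside -0.01, -0.02 and -0.01 over all genes. These 3 comparisons share the same 5 lignan-free arrays. An F test over the 4 diets called Plin2, Plin5, Cidea, Dgat1, Dgat2 and Mgll, 6 of 10 members where 4.89% of all genes were called. The members were chosen with earlier results of these data known, so the shares over all genes give a scale and are no test.

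**Figure D1:**
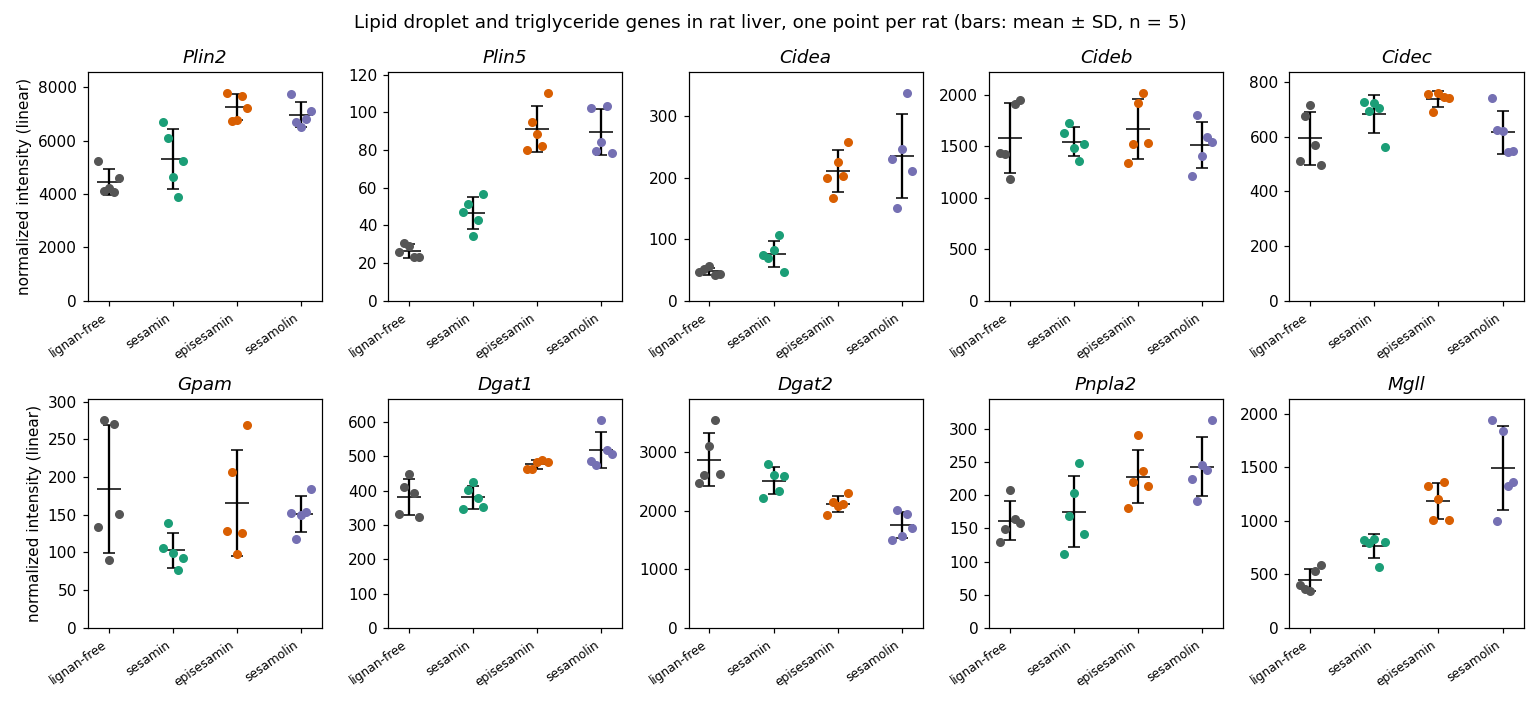
Normalized intensity (linear axis from 0) of the probe set standing for each of the 10 genes, by diet. Points are single rats and bars are mean ± SD (n = 5). Plin5, Cidea and Mgll rise from the lignan-free to the episesamin and sesamolin arrays without overlap, Dgat2 declines, and Cideb is at similar levels in every diet.

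Plin5 is the perilipin of oxidative tissues and tethers droplets to mitochondria. Its normalized intensity was 25.8, 30.9, 29.1, 23.1 and 23.2 on the 5 lignan-free arrays and 47.3, 51.6, 34.1, 42.8 and 56.6 on the sesamin arrays. It was 80.2, 94.9, 88.7, 82.4 and 110.5 with episesamin and 102, 79.8, 84.5, 104 and 78.2 with sesamolin. All arrays of each lignan lay above all lignan-free arrays, and those of episesamin and sesamolin also lay above all sesamin arrays. Among all genes, 1.09%, 3.81% and 3.7% lay wholly above the lignan-free arrays with sesamin, episesamin and sesamolin. The log2 change was 0.69 ± 0.12 with sesamin (limma adjusted p = 0.00963), 1.59 ± 0.12 with episesamin (adjusted p = 6.48e-08) and 1.56 ± 0.12 with sesamolin (adjusted p = 9.31e-08), that is 1.61-, 3.01- and 2.95-fold. The lignan-free level is little above the filter level, so these values depend on the offset: the episesamin change was 1.34 with an offset of 16 and 1.79 with none. The sesamin call ended without normalization between arrays (adjusted p = 0.432), with only the 2 diets in the fit (0.101) and without the 6 dim arrays (0.0855).

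The promoter of Plin5 is shown because this was the member called with all 3 lignans, together with those of Cidea and Mgll, the other members that rose most. The windows run from 250 bases before to 50 bases after the annotated start and come from RefSeq on the GRCr8 assembly. They were searched on both strands for the half-site AGGTCA and for the PPAR response element of direct repeat 1 type, a pair of these half-sites in tandem with 1 free base between them, with up to 2 mismatches. Plin5 lies at chr9:1033235-1033534 (minus strand), Cidea at chr18:63164567-63164866 (plus strand) and Mgll at chr4:122749186-122749485 (plus strand). Capitals mark the half-site.
Plin5: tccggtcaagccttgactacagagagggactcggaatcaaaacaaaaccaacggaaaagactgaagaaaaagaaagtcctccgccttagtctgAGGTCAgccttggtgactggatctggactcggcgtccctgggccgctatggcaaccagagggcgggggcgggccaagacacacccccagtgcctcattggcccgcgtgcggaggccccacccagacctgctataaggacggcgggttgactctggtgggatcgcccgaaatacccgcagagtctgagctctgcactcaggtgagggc
Cidea: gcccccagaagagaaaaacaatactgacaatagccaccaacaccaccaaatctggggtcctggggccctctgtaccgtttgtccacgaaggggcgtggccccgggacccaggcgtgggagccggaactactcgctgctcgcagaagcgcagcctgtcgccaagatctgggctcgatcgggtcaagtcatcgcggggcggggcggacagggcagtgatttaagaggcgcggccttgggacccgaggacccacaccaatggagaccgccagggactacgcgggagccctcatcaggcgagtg
Mgll: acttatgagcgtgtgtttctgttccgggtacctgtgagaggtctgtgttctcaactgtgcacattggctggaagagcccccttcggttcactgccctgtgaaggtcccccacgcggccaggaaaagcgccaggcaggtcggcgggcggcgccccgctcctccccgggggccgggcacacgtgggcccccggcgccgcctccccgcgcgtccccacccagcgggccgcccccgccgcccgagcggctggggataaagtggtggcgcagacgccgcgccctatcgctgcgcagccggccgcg
The half-site was found once, in Plin5, from 157 to 152 bases before the start, and in none of the other 8 windows of members. Of 33465 windows of the same length, 16.2% hold it. The repeat was in 0 of the 9 windows, which cover 8 members (Plin2 has 2 windows; Dgat1 and Dgat2 had no entry), while 3.77% of all windows hold it with up to 2 mismatches. G and C made up 60%, 64% and 72.3% of the Plin5, Cidea and Mgll windows, against a median of 51.7%. These matches describe letters in a window and say nothing on binding.

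Plin2 is the abundant perilipin of hepatocyte droplets, whose protein is stabilised by stored lipid. Its intensity was 5230.3, 4122, 4221, 4088 and 4609.6 without lignan and 6704, 6120.1, 4644, 3888 and 5254 with sesamin, and these ranges overlap. It was 7806, 6754, 6792, 7689 and 7219.8 with episesamin and 7738, 6704, 6508, 6825 and 7122 with sesamolin, above every lignan-free array in both. The change was 0.24 ± 0.12 with sesamin (adjusted p = 0.698), 0.71 ± 0.12 with episesamin (0.00151) and 0.65 ± 0.12 with sesamolin (0.00294). A second, dimmer Plin2 probe set, with means between 89.0 and 141, pointed the other way: -0.67 ± 0.24 with episesamin and -0.41 ± 0.24 with sesamolin, neither called (adjusted p = 0.127 and 0.363 over 15894 probe sets). Averaging both probe sets left Plin2 at 0.02 with episesamin and 0.12 with sesamolin (adjusted p = 0.966 and 0.734). Both calls also ended without normalization between arrays (0.115 and 0.125), and that of sesamolin without the 6 dim arrays (0.0538). The rise of Plin2 therefore rests on the brighter probe set.

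Cidea, which is abundant in brown fat and enlarges droplets in liver, had the largest change of the 10 genes with episesamin and with sesamolin. It was at 46.1, 50.9, 56.2, 42.4 and 43.7 in rats without lignan and at 74.2, 69.6, 81.9, 106 and 47.1 in rats fed sesamin, where replicate 5 fell within the lignan-free range. With episesamin it was 199, 167, 225, 203 and 258, and with sesamolin 231, 150.0, 246, 338 and 211. The lowest of these 10 arrays, at 150.0, exceeded the highest sesamin array. The change was 2.0 ± 0.19 with episesamin (4-fold, adjusted p = 1.15e-06) and 2.12 ± 0.19 with sesamolin (4.36-fold, adjusted p = 4.96e-07), and 0.57 ± 0.19 with sesamin (adjusted p = 0.392). Both calls held under the 34 other settings tried.

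The other CIDE genes gave no call with any lignan. Cideb, the main CIDE gene of hepatocytes, which acts in lipoprotein lipidation, had means of 1578 ± 336, 1541 ± 141, 1665 ± 287 and 1509.6 ± 220.0 in the order lignan-free, sesamin, episesamin and sesamolin (SD, n = 5). Its 95% intervals against the lignan-free diet ran from -0.32 to 0.30, -0.22 to 0.39 and -0.36 to 0.26. Cidec, which drives fusion in white fat and fatty liver, had means of 594 ± 97.9, 682 ± 69, 738 ± 28 and 616 ± 79.6 in the same order. Its change of 0.33 ± 0.11 with episesamin did not pass (adjusted p = 0.102), and passed when lignan-free replicate 3 was left out (0.0442). Over the 34 other settings that change fell as low as 0.08 and its adjusted p rose to 0.813. Its intervals against the lignan-free diet reached at most 0.56, whereas those of Cidea with episesamin and sesamolin began at 1.60 and 1.72.

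**Figure D2:**
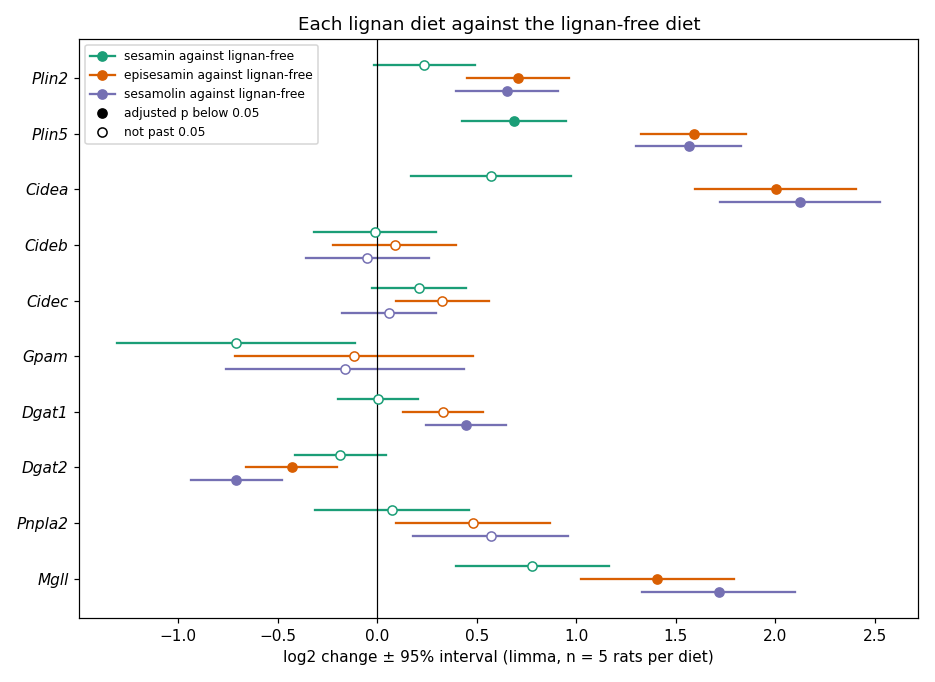
Log2 change of each gene against the lignan-free diet (x axis) with its 95% interval, for sesamin, episesamin and sesamolin (n = 5 rats per diet). Filled points passed an adjusted p of 0.05. Sesamin has 1 filled point, Plin5, and Dgat2 is the only gene with filled points left of 0.

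Among the triglyceride-forming enzymes, the 2 acyltransferases that add the last fatty acid changed in opposite directions with sesamolin. Dgat1, an enzyme of the endoplasmic reticulum, was at 332, 410.2, 447, 393 and 324 without lignan and 346, 401, 425, 378 and 354 with sesamin. With episesamin it was 463, 463, 484, 490.1 and 485, and with sesamolin 487, 475, 606, 518 and 508, so both groups lay above every lignan-free and every sesamin array. The change was 0.00 ± 0.10 with sesamin (adjusted p = 0.995), 0.33 ± 0.10 with episesamin, which did not pass (0.0533), and 0.44 ± 0.10 with sesamolin, which did (0.00917). The sesamolin call ended under median scaling (0.0832), without normalization (0.541) and with only the 2 diets in the fit (0.0672). The episesamin value passed with a filter at the 60th percentile (0.0341), with trended and robust eBayes (0.0344), with array weights (0.0303), and without lignan-free replicate 3 (0.0224) or sesamolin replicate 3 (0.0455). Over the 34 other settings, however, that change fell as low as 0.05 and its adjusted p rose to 0.892.

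Dgat2, which makes triglyceride from newly formed fatty acids and can also sit on droplets, was at 2473, 2605, 3113, 3554 and 2638 on lignan-free arrays and 2223, 2800.5, 2609, 2341 and 2588 on sesamin arrays. It was 1934, 2159, 2089, 2110.3 and 2298 with episesamin and 1507, 2013, 1576, 1946 and 1714 with sesamolin, all below the lowest lignan-free array. Over all genes, 3.04% and 3.23% lay wholly below the lignan-free arrays in these comparisons. The change was -0.19 ± 0.11 with sesamin (adjusted p = 0.772), -0.43 ± 0.11 with episesamin (0.0275) and -0.71 ± 0.11 with sesamolin (0.000453, 1.64-fold lower). A second Dgat2 probe set was at -0.74 ± 0.13 with sesamolin and was called (adjusted p = 0.00186 over probe sets), and at -0.28 ± 0.13 with episesamin, where it was not (0.264). The episesamin call ended without normalization (0.0655), with the mean of both probe sets (0.0895), with only the 2 diets (0.0752), without the dim arrays (0.185), and on leaving out lignan-free replicate 3 or 4 or episesamin replicate 1, 3 or 4 (up to 0.0759), while the sesamolin call held under the 34 settings.

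Both genes are read on the same array, so a scale factor common to that array cancels in the difference of their changes, apart from the offset. Relative to the lignan-free mean, the log2 change of Dgat1 minus that of Dgat2 was from -0.26 to 0.24 on lignan-free arrays and from 0.04 to 0.29 on sesamin arrays. It was from 0.66 to 0.84 with episesamin and from 0.82 to 1.52 with sesamolin. The episesamin and sesamolin arrays lay above all others. Against the lignan-free arrays, and for sesamolin also against sesamin, this follows from the separation of each gene given above. It is therefore not further support there. The values were quantile normalized, so a shift that depends on intensity does not cancel.

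**Figure D3:**
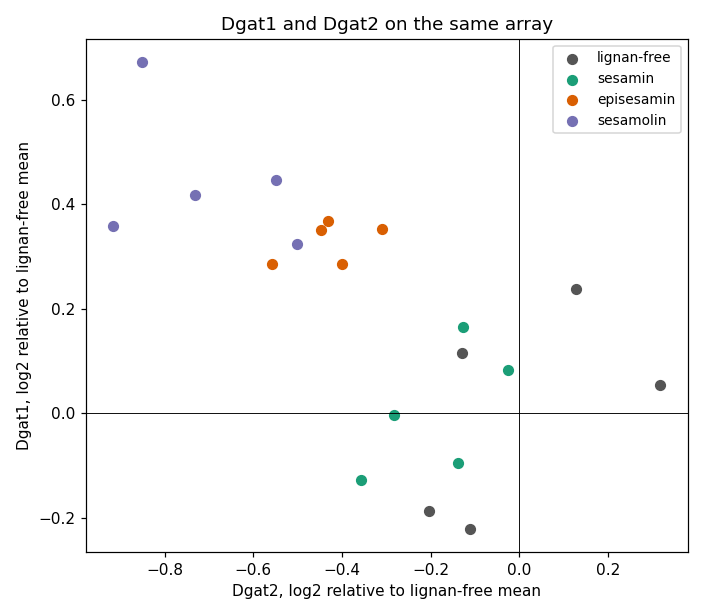
Log2 level of Dgat1 (y axis) against that of Dgat2 (x axis), each relative to its lignan-free mean, with 1 point per array and colour for diet. All 10 episesamin and sesamolin arrays lie in the upper left, with Dgat1 above and Dgat2 below the lignan-free mean.

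Gpam, the mitochondrial enzyme that acylates glycerol 3-phosphate, had the largest SE of the members, with 133, 276, 90.1, 271 and 150.4 on lignan-free arrays. It was 107, 139, 99.5, 77.2 and 92.1 with sesamin, all but 1 inside that range. The change with sesamin was -0.71 ± 0.28 and did not pass (adjusted p = 0.562). With episesamin and sesamolin it was -0.12 ± 0.28 and -0.16 ± 0.28 (0.86 and 0.798). A second Gpam probe set gave -0.83 ± 0.26 with sesamin (adjusted p = 0.373 over probe sets).

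Of the lipolytic enzymes, Mgll rose and Pnpla2 did not pass. Mgll frees glycerol and a fatty acid from monoacylglycerol and also degrades the endocannabinoid 2-arachidonoylglycerol. It was at 403, 365, 349.9, 535 and 589 without lignan and 826, 791, 834, 568 and 802 with sesamin, where replicate 4 lay inside the lignan-free range. It was 1323, 1012, 1208, 1364 and 1005 with episesamin and 1944, 1003, 1843, 1323 and 1361 with sesamolin, above every lignan-free array. The change was 1.41 ± 0.18 with episesamin (2.65-fold, adjusted p = 6.63e-05) and 1.71 ± 0.18 with sesamolin (3.28-fold, 5.41e-06). With sesamin it was 0.78 ± 0.18 and did not pass (0.0872). It passed there with the mean of its probe sets (0.0368), with trended and robust eBayes (0.0307), and without lignan-free replicate 5 (0.0428) or sesamolin replicate 2 (0.0449). Over the 34 other settings the sesamin change was at least 0.655, with an adjusted p of up to 0.9995.

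Mgll had 3 probe sets that passed the filter, and they agreed in size. Their changes were from 0.57 to 0.78 with sesamin, from 1.33 to 1.41 with episesamin and from 1.59 to 1.71 with sesamolin. All 3 were called with episesamin and with sesamolin, and none with sesamin. The tested probe sets other than the brightest had all sesamin arrays above all lignan-free arrays (adjusted p = 0.0586 and 0.0881 over probe sets). Of all genes, 1.09% lay so with sesamin. The other Mgll probe set did not exceed 27.4 on any array and was not tested. Over all probe sets of the members, 1, 7 and 9 of 15 were called with sesamin, episesamin and sesamolin, where 0.333%, 3.77% and 4.86% of 15894 probe sets were called.

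**Figure D4:**
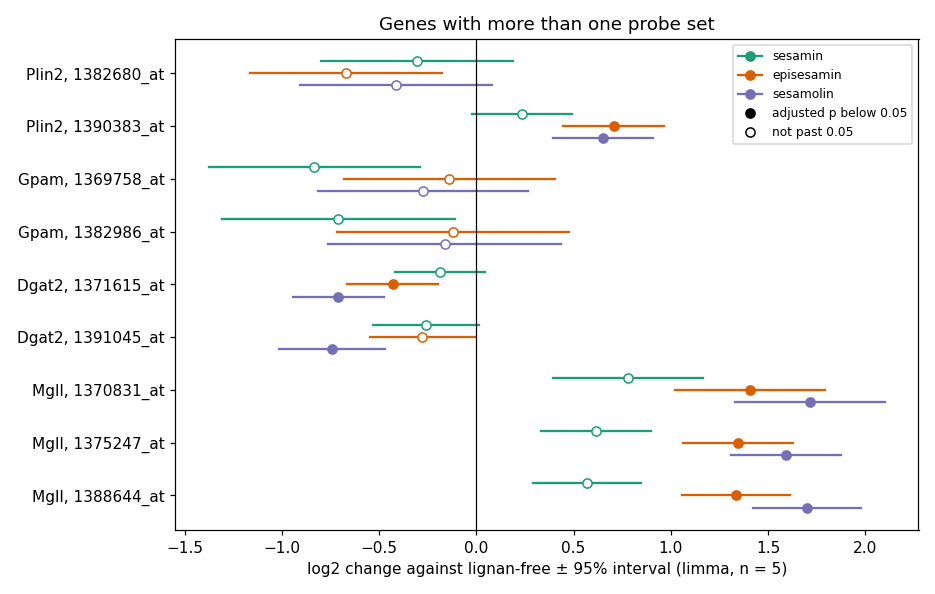
Log2 change against the lignan-free diet (x axis, with 95% interval, n = 5) for each tested probe set of the 4 genes with more than 1, from a fit over all probe sets. The 3 Mgll probe sets lie together, and the 2 Plin2 probe sets lie on opposite sides of 0.

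Pnpla2, which starts triglyceride hydrolysis on the droplet, was at 129.7, 149, 208, 164 and 158 without lignan and 111, 169, 204, 248 and 142 with sesamin. It was 181, 219, 289.9, 237 and 214 with episesamin and 225, 192, 246, 238 and 313 with sesamolin, with 1 array of each inside the lignan-free range. The changes of 0.48 ± 0.19 and 0.57 ± 0.19 with these lignans did not pass (adjusted p = 0.15 and 0.0782), and with sesamin it was 0.07 ± 0.19 (0.966). The sesamolin value passed with trended and robust eBayes (0.048), with array weights (0.0374), with the actin ratio as a covariate (0.046) and without sesamin replicate 1 (0.0474). Over the 34 other settings it fell as low as 0.32 and its adjusted p rose to 0.443.

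The 3 lignans, fed at 1 dose for 1 time, were then set against each other in all 3 pairs, with p-values adjusted over all genes of a pair. Episesamin gave higher levels than its epimer sesamin for Plin5, by 0.90 ± 0.12 (adjusted p = 0.000822), and for Cidea, by 1.43 ± 0.19 (0.000692), 2 of 10 members where 1.23% of all genes were called (0.821% higher, 0.406% lower). Both calls ended without normalization between arrays (0.227 and 0.0824). Plin2 (0.47 ± 0.12), Mgll (0.63 ± 0.18) and Dgat1 (0.32 ± 0.10) did not pass between the epimers (adjusted p = 0.0699, 0.113 and 0.116), although all 5 episesamin arrays of each lay above all 5 sesamin arrays, as was so for 2.15% of all genes, while 1.49% and 0 members lay wholly below. Plin2 passed with a filter at the 60th percentile (0.0437), with trended and robust eBayes (0.0204), with array weights (0.0291) and without sesamin replicate 1 (0.0215), and Mgll with the mean of its probe sets (0.0114). Over the 34 other settings, however, the Plin2 change fell as low as 0.05 and its adjusted p rose to 0.914. For Mgll these limits were 0.46 and 0.583. The second Plin2 probe set pointed the other way, at -0.36 ± 0.24 (adjusted p = 0.572 over probe sets). Fitted singly, the other 2 tested Mgll probe sets were called higher with episesamin, at 0.73 ± 0.13 and 0.76 ± 0.13 (adjusted p = 0.00892 and 0.00583), so that 4 of 15 probe sets of members were called where 1.04% of all probe sets were.

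Sesamolin, which has the oxygen bridge that sesamin lacks, gave higher levels than sesamin for Cidea by 1.56 ± 0.19 (adjusted p = 0.000269), Plin5 by 0.88 ± 0.12 (0.000773), Mgll by 0.94 ± 0.18 (0.0115) and Dgat1 by 0.44 ± 0.10 (0.0211). Dgat2 was lower by a log2 difference of -0.52 ± 0.11 (0.0173). These are 5 of 10 members, where 1.81% of all genes were called (1% higher, 0.812% lower). Their arrays did not overlap with those of sesamin either, where 2.3% of all genes lay wholly above and 2% wholly below. For Dgat2 this holds for the brighter probe set. The second was at -0.49 ± 0.13, overlapped the sesamin arrays and was not called (adjusted p = 0.0763 over probe sets). By single probe sets 7 of 15 were called against 1.37% of all, among them all 3 tested for Mgll. The call of Cidea held under the 34 settings, while without normalization those of Plin5, Mgll, Dgat1 and Dgat2 ended (0.193, 0.295, 0.663 and 0.192). Those of Mgll, Dgat1 and Dgat2 ended with only the 2 diets in the fit (0.0695, 0.101 and 0.083), and those of Dgat1 and Dgat2 without the dim arrays (0.0747 and 0.103) and without sesamolin replicate 3 (0.064 and 0.0524). The Dgat1 call also ended under median scaling (0.0829) and without sesamin replicate 5 (0.0635). Plin2, at 0.41 ± 0.12, did not pass (0.0931), and passed with trended and robust eBayes (0.0347), with array weights (0.0464) and without sesamin replicate 1 (0.0336). Over the 34 other settings its change fell as low as 0.15 and its adjusted p rose to 0.725. The second Plin2 probe set was at -0.11 ± 0.24 (adjusted p = 0.903 over probe sets).

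Between sesamolin and episesamin limma called 0 members, where 0% of all genes were called. At an unadjusted p below 0.05 there were 2 members, Dgat2 at -0.28 ± 0.11 and Cidec at -0.27 ± 0.11, and 663 of 11576 genes (5.73%). The 95% intervals of the difference were from -0.29 to 0.24 for Plin5, -0.31 to 0.20 for Plin2, -0.28 to 0.53 for Cidea, -0.08 to 0.69 for Mgll and -0.51 to -0.05 for Dgat2. The intervals of Plin5 and Plin2 leave room for differences of up to about 0.3 in log2, and those of Cidea, Mgll and Dgat2 for more. The sesamolin arrays of the 3 tested Mgll probe sets overlapped those of episesamin. Their differences were from 0.25 to 0.37 and none passed (smallest limma adjusted p = 0.84 over probe sets). The second Dgat2 probe set was at -0.47 ± 0.13 and lay below all episesamin arrays on all sesamolin arrays, but did not pass (adjusted p = 0.546 over probe sets). Of all genes, 0.397% lay wholly below in this comparison, and the brighter Dgat2 probe set overlapped.

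**Figure D5:**
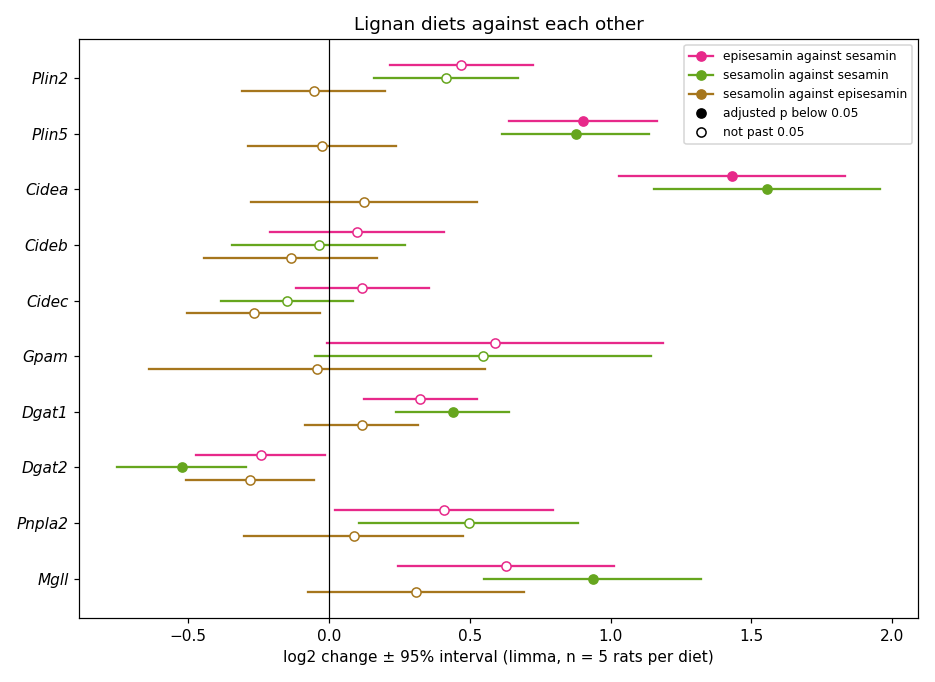
Log2 difference between lignan diets (x axis) with its 95% interval for each gene (n = 5 rats per diet), where filled points passed an adjusted p of 0.05. Cidea and Plin5 were higher with episesamin and with sesamolin than with sesamin, and sesamolin against episesamin has 0 filled points.

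Deviations from the diet means were compared between members over the 20 arrays, which share library and normalization within an array. Plin2 and Pnpla2 varied most strongly in opposite directions (Pearson r = -0.68), and Cidec and Dgat1 most strongly together (r = 0.53). Plin5 was most like Nudt7, Acad11 and Crat over the 20 arrays (r = 0.97, 0.96 and 0.96 across all diets), Cidea was most like Aco1, Ehhadh and Hsd17b4 (0.95, 0.94 and 0.94), and Mgll was most like Nudt7, Hsd17b12 and Crat (0.93, 0.92 and 0.92). Plin2 was most like Mcrip2, Stk24 and Mmgt1 (0.95, 0.92 and 0.92), Dgat1 most like Gpx4, Timm10b and Mrpl30 (0.89, 0.89 and 0.89), and Dgat2 most like Hsp90b1, Slc37a4 and Fut8 (0.91, 0.87 and 0.87). The correlations with these other genes include the diet differences, those between members do not, and all describe 20 arrays in 4 groups.

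Beyond the members, 44 other genes of lipid droplets and triglyceride metabolism were listed, of which 42 were on the array and 40 were tested (Mogat1 and Mogat2 did not pass the filter). With sesamin, limma called 0 of 40, with 8 at an unadjusted p below 0.05 (862 of 11576 genes, 7.45%, over the whole array), and 1 with trended and robust eBayes, array weights or sesamin replicate 2 left out, and 2 without the dim arrays. With episesamin 9 were higher and 3 lower, and with sesamolin 7 higher and 2 lower, where 5.12% and 6.24% of all genes were called. The list's median change was 0.03, 0.17 and 0.04 with sesamin, episesamin and sesamolin, close to the all-gene medians given above except with episesamin. The episesamin count fell to 6 under median scaling, 0 without normalization, 7 with only the 2 diets, 5 without the dim arrays, 7 without lignan-free replicate 2 or episesamin replicate 3 and 6 without episesamin replicate 4. The sesamolin count fell to 5 under median scaling and 1 without normalization.

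Of the genes called higher, up to 3 of lowest adjusted p are named for each lignan. Acsl3, the acyl-CoA synthetase of nascent droplets, was 571 ± 144 with episesamin against 240.3 ± 26.8 without lignan (SD, n = 5), a change of 1.20 ± 0.17 (adjusted p = 0.000133). Bscl2 (seipin), which shapes the contact of droplets with the endoplasmic reticulum, rose by 0.58 ± 0.10 with episesamin (0.0025). Hilpda, an inhibitor of Pnpla2, rose by 0.64 ± 0.13 with episesamin (0.00519) and by 0.75 ± 0.13 with sesamolin (0.00104). Fitm2, which partitions triglyceride into droplets, was 1064 ± 272 with sesamolin against 456 ± 89.5, a change of 1.20 ± 0.18 (0.000326). Faf2, a droplet protein that recruits protein degradation, rose by 0.54 ± 0.10 with sesamolin (0.00236). Of these, only the call of Fitm2 held without normalization between arrays (0.0157 against 0.0678 to 0.445 for the rest). Under median scaling the calls of Hilpda with episesamin and of Faf2 ended (0.0647 and 0.0958), and that of Faf2 also with the mean of its probe sets (0.0715).

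The lower genes of the list were a lipase, a deacetylase and an acyl-CoA synthetase. Lipc, the hepatic lipase of the sinusoid, was at -0.47 ± 0.11 with episesamin (adjusted p = 0.0125). Aadac, a microsomal ester hydrolase, was at -0.41 ± 0.11 with episesamin (0.0393) and -0.49 ± 0.11 with sesamolin (0.0125). Acsl5 was at -0.54 ± 0.15 and -0.52 ± 0.15 (0.0409 and 0.0434). The Acsl5 calls ended under 15 and 18 of 34 settings, with adjusted p up to 0.296 and 0.468 for the mean of its probe sets. Single arrays that ended them were, with episesamin, lignan-free replicates 1, 2, 4 and 5, sesamin 3 and episesamin 1, 3 and 4, and, with sesamolin, lignan-free 1, 2, 4 and 5, sesamin 3, episesamin 2 and 3 and sesamolin 1, 3, 4 and 5 (up to 0.111). The Aadac call with episesamin ended under 14 settings, with adjusted p up to 0.327 without the dim arrays, among them the omission of lignan-free replicate 1, 3, 4 or 5 or episesamin replicate 3, 4 or 5 (up to 0.106), and those of Aadac with sesamolin and of Lipc ended without normalization (0.105 and 0.0915) and without the dim arrays (0.0979 and 0.0974).

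Several members are also strongly expressed in fat, so adipocyte markers were read beside them. Of 7 listed adipocyte genes, 6 were on the array and 4 passed the filter. Plin1 and Lipe are also in the wider droplet list. Lep was at most 4.83 on any array and Adipoq exceeded the filter level on 3 of 20 arrays. The summed adipocyte level was from 239.6 to 416 without lignan, 329 to 389 with sesamin, 265 to 354 with episesamin and 223 to 347 with sesamolin. No difference from the lignan-free diet was detected (two-sided exact permutation p = 0.262, 0.944 and 0.357, 5 arrays a diet). Of 3 markers of muscle and brown fat, the sum was at most 56.5 on any array. The sums of 6 hepatocyte and 2 red blood cell markers gave no detected difference from the lignan-free diet with any lignan (smallest exact permutation p = 0.421 and 0.167).

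Sums of markers of other liver cells were lower with the episesamin and sesamolin diets. The summed level of 5 Kupffer cell and macrophage markers was from 2293 to 2611 without lignan, 1736 to 2267 with episesamin and 1267 to 2026 with sesamolin, and that of 5 endothelial markers was from 2682 to 3119, 2117 to 2506 and 2111 to 2613. Each of these 4 differences had the smallest exact permutation p that 5 against 5 arrays allow (p = 0.00794, adjusted p = 0.0417 over 21 tests of 7 lists). The sum of 7 stellate cell and fibroblast markers was from 3503 to 5567 without lignan, 3068 to 3650 with episesamin and 2540 to 3578 with sesamolin (exact p = 0.0238 and 0.0476, adjusted p = 0.0833 and 0.143). With sesamin the endothelial sum was from 2567 to 2770 (exact p = 0.0238, adjusted p = 0.0833) and the Kupffer sum from 1593 to 2573 (exact p = 0.0794). All of these sums were lower than without lignan under each scaling of the arrays. The median of all genes was also lower without normalization (-0.08, -0.25 and -0.22 in log2 with sesamin, episesamin and sesamolin). Under median scaling it was -0.09, -0.13 and -0.10, so the direction there is no separate support. Without normalization the exact permutation p was 0.0159 (Kupffer) and 0.0317 (endothelial) with sesamolin, and 0.135 (endothelial) with sesamin. It was 0.00794 for both episesamin sums, and for each of these under median scaling. In whole liver, fewer cells of a type and less RNA per cell cannot be told apart, and the part of these cells in the changes of the 10 genes was not tested.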

How the data were processed

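The deposited table holds 1 linear intensity per probe set and array, 31099 probe sets on 20 arrays. Per the labels' protocols, biotin-labelled cRNA was prepared from the RNA of each rat, so replicates are separate animals. What software computed the deposited intensity values was not given in the sources used here, and array means differed 1.7-fold, so arrays were quantile normalized, 5.85 (the 20th percentile) was added and log2 taken. Depth has no counterpart here, and the number of arrays limits precision. Probe sets with 1 symbol (20832 of 31099) were used without the controls. The brightest passing probe set stood for its gene (11576 genes), and all were also fitted singly (15894).

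Group means were fitted with limma 3.58.1 in R 4.3.3 (two-sided moderated tests, Benjamini-Hochberg adjustment per comparison). The procedure was also run on simulated data with independent noise, which does not measure the rate of false calls on these arrays. Single values were compared by exact permutation. Named genes are all 10 members, from the wider list up to 3 called genes per lignan and direction with the lowest adjusted p, and for likeness the 3 genes of highest r. Members and lists were chosen with earlier results of these data known. Alternatives were other scalings, offsets, filters, probe set rules, variance models, covariates, subsets of arrays, a replicate block and leaving out each array.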

Additional observations from a re-analysis of the deposited data

Results flagged for a closer look

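In 3 of 40 groups of 5 arrays (10 genes in 4 diets), 1 array lay far from the other 4 by Dixon's criterion, whose critical value for 5 values is 0.71. Chance alone gives about 1 in 20 such groups. For Cidec, sesamin replicate 5 was at 561 while the others were from 694 to 728, and episesamin replicate 2 was at 691 while the others were from 741 to 761. For Mgll, sesamin replicate 4 was at 568 while the others were from 791 to 834.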

How the results depend on the processing

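Of 19 calls of members in the 6 diet comparisons, 8 held under all 34 other settings, and none changed direction under them: Plin5, Cidea and Mgll with episesamin, these and Dgat2 with sesamolin, and Cidea for sesamolin against sesamin. With sesamin, where 1 member was called, there were 0 without normalization between arrays, 0 with only both diets in the fit, 0 without the 6 dim arrays, 2 with probe sets averaged, 2 with trended and robust eBayes and from 1 to 2 when single arrays were left out. With episesamin the 5 called became 3 without normalization and 3 with the mean of probe sets, and 4 to 6 when single arrays were left out. With sesamolin the 6 were from 4 to 7 over all settings and from 6 to 7 when single arrays were left out. Between the epimers the 2 became 0 without normalization and 2 to 3 when arrays were left out. For sesamolin against sesamin the 5 became 1 without normalization, 2 with only both diets in the fit, 3 without the dim arrays and 3 to 6 when arrays were left out, 3 without sesamolin replicate 3. Sesamolin against episesamin stayed at 0, and the F test called from 4 to 7, with 6 whenever a single array was left out. Without normalization the median of all genes stood at -0.25 with episesamin and -0.22 with sesamolin, and under median scaling at -0.13 and -0.10. The replicate block gave 1, 6 and 7 members with sesamin, episesamin and sesamolin, 3, 6 and 0 for the pairs and 7 by the F test. It added Dgat1 with episesamin (adjusted p = 0.0218), Pnpla2 with sesamolin (0.0298), and Plin2 for episesamin and sesamolin against sesamin (0.0346 and 0.0466), and 1 gene of the wider list with sesamin. The main fit holds no block, since the labels do not say that the numbers pair the rats. Same-numbered arrays of different diets nevertheless deviated together more often. Their r was above 0.1 in 10 of 30 such pairs (mean 0.06), against 2 of 120 differently numbered pairs (mean -0.02). Of the 20 arrays, 10 correlated best with an array of their own number. The labels do not explain this hint of a structure by number, and the main calls do not account for it. The size of the Plin5 change, near the filter level without lignan, depends on the offset.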
